A study of Mus musculus with 36 samples.

Results

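The genes of cholesterol synthesis and its sterol-sensing control were followed in the lungs of mice given tube-shaped titanium dioxide nanoparticles. The set holds 28 genes, found by RefSeq accession among 36799 gene names on the array and taken at the probe of highest mean signal for each gene. All 28 passed the filter on dim probes, as did 23256 gene names in all, and each member was well above background in the lung channel on 36 of 36 arrays. Lung RNA came from 29 female C57BL/6 mice, aged 5 to 7 weeks per the labels, each of which had received 1 intratracheal instillation of 0, 18, 54 or 162 µg of particles in 40 µl of suspension. At day 1 the groups held 4 mice at 0 µg (the controls), 3 at 18 µg, 3 at 54 µg and 4 at 162 µg, and at day 28 they held 3, 4, 4 and 4 mice at the same doses. Random sections of the lung were extracted per the labels, so fewer cells of a type and less RNA per cell cannot be told apart. Every value is a log2 ratio of lung RNA (Cy5) over a reference RNA pooled from 11 mouse cell lines (Cy3), so a value below 0 means less signal than in the reference, and levels of different genes cannot be ranked against each other. Changes between groups are differences of these log2 ratios.

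Cholesterol is built from acetyl-CoA. The mevalonate steps make the isoprenoid units, which are joined to farnesyl diphosphate; squalene synthase then commits them to sterols, and squalene is closed to lanosterol and trimmed to cholesterol. When sterols in the endoplasmic reticulum are scarce, Scap carries the membrane-bound factor SREBP-2, the product of Srebf2, to the Golgi for cleavage, and the released factor raises transcription of most of these enzymes; Insig proteins hold Scap back when sterols are plentiful. In the lung, alveolar type II cells use cholesterol in surfactant and macrophages take it up with the surfactant they clear.

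The promoter windows below are shown for the 4 members that passed a test at day 1, and for Hmgcs1 because it alone among the 24 members with a window held the sterol regulatory element searched. Each window runs from 250 bases before to 50 bases after a transcript start in RefSeq (GRCm38.p6), 5′ to 3′ on the gene's strand. Capitals mark the matches to TCACNCCAC, a sterol regulatory element, and to CCAAT, the box bound by NF-Y, on either strand (ATTGG is CCAAT on the other strand). CACGTG, an E-box, was searched too and is in none of these 5 windows, and the marked matches share no bases.
Hmgcs1 (chr13:119690101-119690400, plus strand): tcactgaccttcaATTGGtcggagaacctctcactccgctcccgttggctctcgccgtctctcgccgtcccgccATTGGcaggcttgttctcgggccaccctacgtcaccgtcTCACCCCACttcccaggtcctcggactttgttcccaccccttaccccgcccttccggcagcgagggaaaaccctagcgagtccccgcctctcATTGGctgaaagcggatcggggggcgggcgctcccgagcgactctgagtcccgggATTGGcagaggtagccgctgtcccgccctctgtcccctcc
Nus1 (chr10:52417297-52417596, plus strand): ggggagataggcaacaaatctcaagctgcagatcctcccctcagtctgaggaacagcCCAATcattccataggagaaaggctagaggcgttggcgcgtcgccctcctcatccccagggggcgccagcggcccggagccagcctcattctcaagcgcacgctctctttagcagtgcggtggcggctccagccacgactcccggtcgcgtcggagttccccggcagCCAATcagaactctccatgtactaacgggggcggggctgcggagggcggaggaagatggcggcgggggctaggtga
Mvd (chr8:122443373-122443672, minus strand): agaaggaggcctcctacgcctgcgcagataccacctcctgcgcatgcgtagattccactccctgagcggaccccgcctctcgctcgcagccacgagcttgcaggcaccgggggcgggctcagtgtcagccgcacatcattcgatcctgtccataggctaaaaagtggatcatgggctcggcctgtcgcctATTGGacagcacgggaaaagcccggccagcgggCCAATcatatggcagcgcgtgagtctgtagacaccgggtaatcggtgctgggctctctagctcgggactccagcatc
Tm7sf2 (chr19:6067801-6068100, minus strand): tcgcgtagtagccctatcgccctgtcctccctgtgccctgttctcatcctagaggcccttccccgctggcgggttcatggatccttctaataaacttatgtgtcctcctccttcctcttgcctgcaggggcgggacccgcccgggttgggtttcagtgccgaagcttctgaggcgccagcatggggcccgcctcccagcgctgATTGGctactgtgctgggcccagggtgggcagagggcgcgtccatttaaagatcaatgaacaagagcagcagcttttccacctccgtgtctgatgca
Ebp (chrX:8193463-8193762, minus strand): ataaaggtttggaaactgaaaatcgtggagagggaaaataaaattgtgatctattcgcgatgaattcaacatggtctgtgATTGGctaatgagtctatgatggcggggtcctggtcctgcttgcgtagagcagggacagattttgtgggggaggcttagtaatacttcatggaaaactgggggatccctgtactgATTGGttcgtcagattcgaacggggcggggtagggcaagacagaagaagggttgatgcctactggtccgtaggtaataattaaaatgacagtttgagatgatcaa
Of the 28 members, 24 had a window in the RefSeq table. Fdps, Fdft1, Sqle and Stard4 had none and were not searched, and other forms of the sterol regulatory element were not searched in any member. TCACNCCAC was found in 1 of these 24 (Hmgcs1) and in 1.44% of 27025 genes. CCAAT was found in 22 of 24 and in 41.1% of genes, and CACGTG in 5 of 24 and in 8.09% of genes. These are matches of letters, and binding was not measured.

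The arrays differed in tissue make-up before any comparison between doses. On 12 of 36 arrays the mean log2 Cy5 intensity over 14 skeletal muscle genes was at least 10.4, against at most 7.55 on the other 24, and 8 arrays also carried squamous epithelium genes. A mouse with such a muscle array was found in 4 of 4 controls, 1 of 3 mice at 18 µg, 1 of 3 at 54 µg and 1 of 4 at 162 µg at day 1, and in 0 of 3, 1 of 4, 3 of 4 and 0 of 4 at day 28. The lung markers Sftpc, Scgb1a1, Ager and Cdh5 were above background on all 36 arrays. One mouse, replicate 1 at 162 µg and day 28, has titles that say day 1 and a time label that says day 28. This mouse was kept at day 28. With it there, the mean log2 ratio over 16 cell cycle genes was -2.54 to -2.27 in the mice at 162 µg and day 28. At 162 µg and day 1 that mean was -1.81 to -1.75. The ranges of the other marker lists overlapped between these groups.

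The comparison of 162 µg with the controls at day 1 asked which members changed soon after the highest dose. Nus1 and Tm7sf2 rose, the other 26 did not pass the test, and no member was called lower. Calls were made by limma where the p-value, adjusted by Benjamini-Hochberg over all 23256 genes, was under 0.05; 1.7% of them were called in either direction and 1.5% higher. The members' median change was 0.27, and 24 of 28 were above 0, against a median of 0.006 and 51.3% of all genes tested; without control replicate 2 the members' median was 0.18. An unadjusted p under 0.05 was found for 5 members and for 12.9% of all genes. At 54 µg limma called 0 members and 0.0516% of all genes, and 5 members and 7.64% of all genes had an unadjusted p under 0.05. The members' median was 0.23, and 23 of 28 were above 0, against 50.2% of all genes. At 18 µg limma called 0 members and 0% of all genes, and 1 member and 4.1% of all genes had an unadjusted p under 0.05. The members' median was -0.14, and 10 of 28 were above 0, against 49.7% of all genes. The 18 µg median was -0.04 without control replicate 4, about -0.09 without replicate 2 or 3 at 18 µg, and 0.05 with arrays centred on their medians in place of loess. Leaving out the muscle arrays left 1 control mouse on 1 array at day 1; against that array the members' medians were 0.18 at 18 µg, 0.45 at 54 µg and 0.53 at 162 µg, which give no direction for the groups. That centring moved the median of all genes by 0.10 at 162 µg, 0.23 at 54 µg and 0.11 at 18 µg, and the members' medians were then 0.44 and 0.59 at 162 and 54 µg. These 3 comparisons share their 4 control mice.

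**Figure D1:**
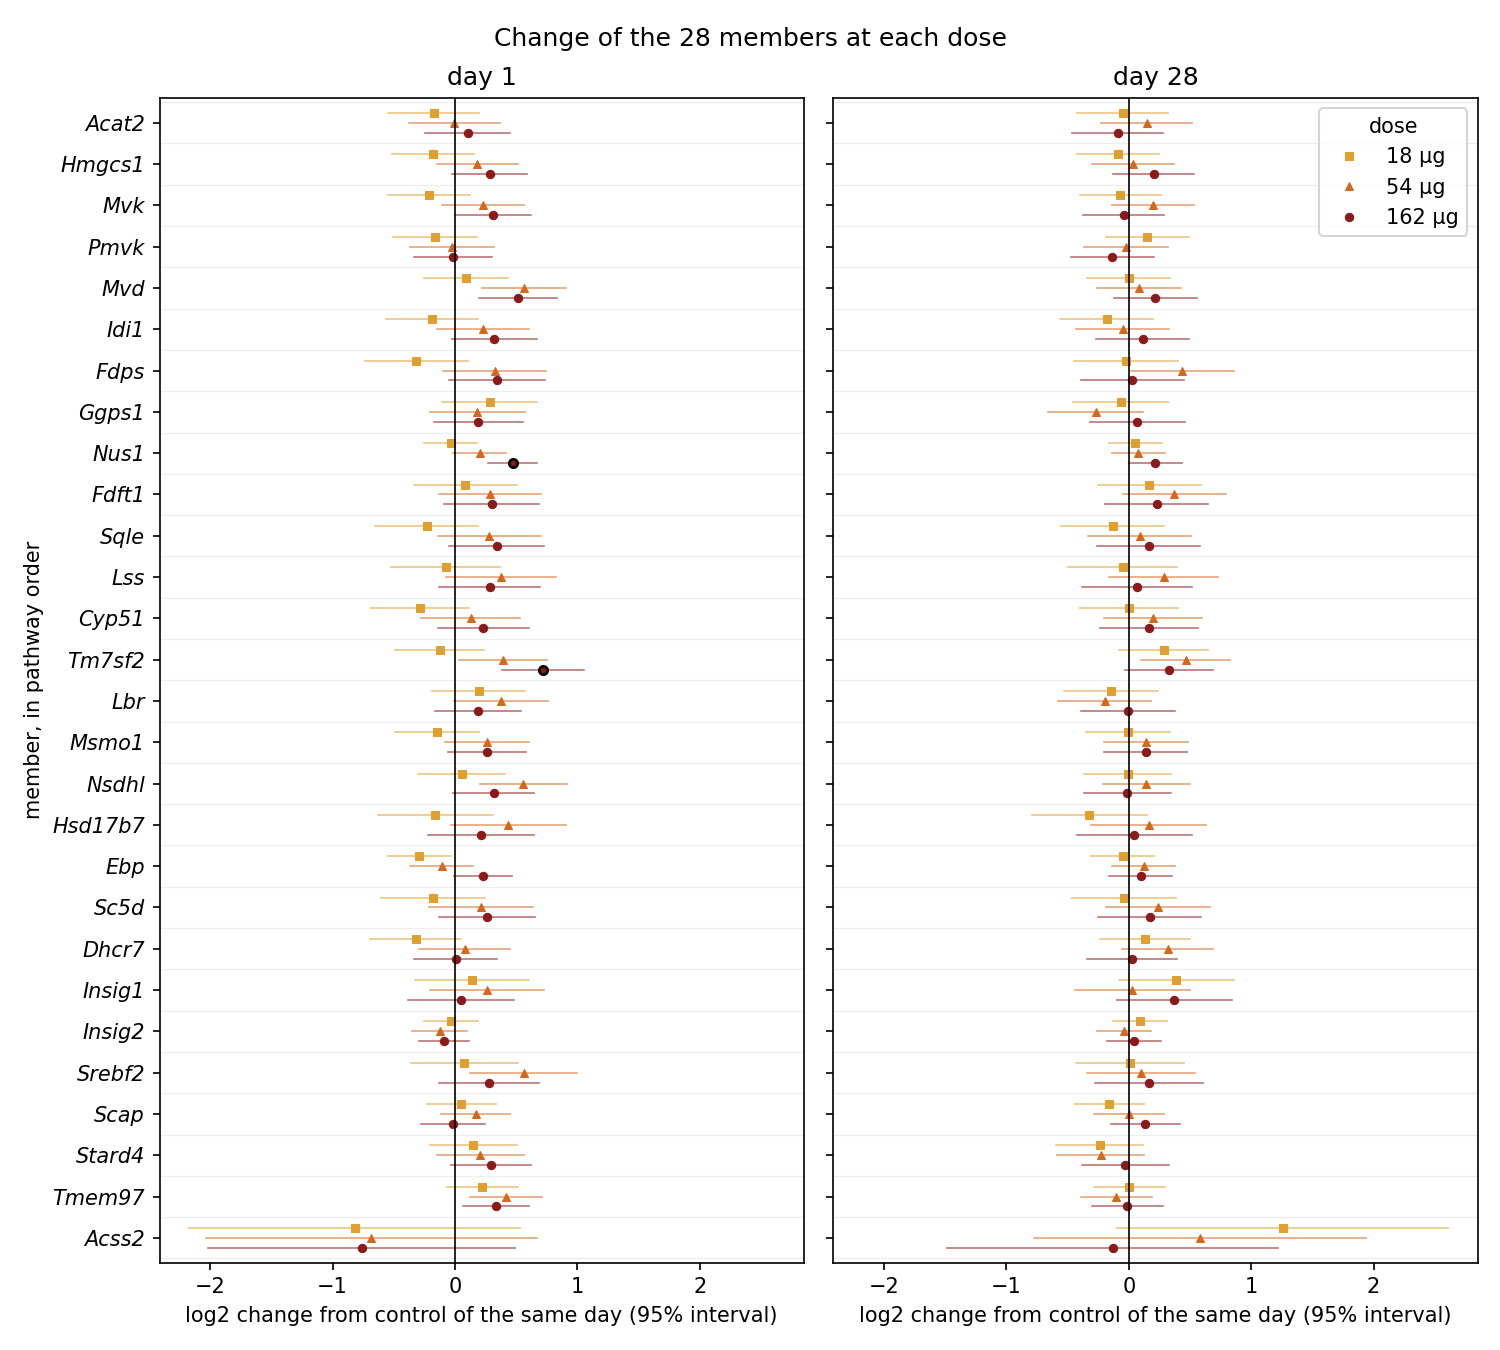
Log2 change of each of the 28 members from the controls of the same day at 18, 54 and 162 µg, with 95% intervals from limma, at day 1 (left) and day 28 (right); a black rim marks an adjusted p under 0.05. Only Nus1 and Tm7sf2 at 162 µg and day 1 carry a rim, and the interval of Acss2 is the widest.

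The 162 µg group at day 1 was also set against the 18 µg group. Its 4 mice enter this comparison, that with the controls and the dose trend below, so these results are not independent. Limma called 3 members higher at 162 than at 18 µg (Nus1, Tm7sf2 and Ebp), where 2.04% of all genes were called in either direction and 1.68% higher. The members' median difference was 0.34, and 23 of 28 were above 0, against 0.008 and 51.6% of all genes. In 13 members every 162 µg mouse lay above every 18 µg mouse, which held for 7.76% of all genes, and in 0 members every mouse lay below. The 13 were Hmgcs1, Mvk, Mvd, Idi1, Fdps, Nus1, Sqle, Lss, Cyp51, Ebp, Sc5d, Dhcr7 and Tm7sf2. Against the controls the groups did not overlap for 4 members (Nus1, Mvd, Tm7sf2 and Nsdhl), and 4.2% of all genes were above in the same way. The dose trend, a slope over the 4 doses in steps of 3-fold with control as the lowest step, was called for Nus1, Tm7sf2 and Mvd, all upward; 2.58% of all genes were called in either direction and 2.22% upward. It was above 0 for 26 of 28 members, with a median of 0.12 per step against 0.002 for all genes. None of the 3 calls against 18 µg was made when the fit held no other groups, when arrays were centred on their medians or when the mouse of conflicting labels was placed at day 1 (adjusted p of 0.0508 to 0.711). In these settings 0.426%, 0.486% and 0.881% of all genes were called.

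Nus1 makes a subunit of the enzyme that builds dolichol, a product of the isoprenoid branch needed for protein glycosylation. Its log2 ratios at day 1 were -0.99, -0.74, -0.76 and -0.98 in the controls, -0.97, -0.78 and -0.94 at 18 µg, -0.84, -0.59 and -0.56 at 54 µg, and -0.23, -0.45, -0.53 and -0.36 at 162 µg. All 4 mice at 162 µg lay above all mice at 0, 18 and 54 µg. The means were -0.86 ± 0.13 (SD, n = 4) in the controls and -0.39 ± 0.13 (SD, n = 4) at 162 µg, a rise of 1.39-fold (95% interval 1.21 to 1.59; log2 change 0.47, SE 0.10, limma adjusted p = 0.00826). Against 18 µg the difference was 0.51 (adjusted p = 0.00801), and the trend was 0.17 per dose step (adjusted p = 0.00281). The change from control was 0.23 to 0.76 within the 4 slide blocks (the 5 slides, with those that carry the same mice joined). A different Nus1 probe, also above background on 36 arrays, gave 0.21 (SE 0.11) from control, 0.11 (SE 0.12) against 18 µg and 0.05 (SE 0.04) per step. How far Nus1 rose, and whether it rose against 18 µg or per step, thus depends on the probe. The call from control was lost without replicate 1 at 162 µg (change 0.42, adjusted p = 0.0536), with median centring (0.134) and when the fit held no other groups (0.185). The call against 18 µg was lost without replicate 1 (0.0597) or 3 (0.0586) of the 18 µg mice. The trend was called in all 27 alternatives run, none of which used the different probe alone.

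Tm7sf2 makes a sterol reductase that acts on lanosterol-derived intermediates, a step that Lbr can also carry out. Its log2 ratios at day 1 were 0.49, 0.57, 0.45 and 0.66 in the controls, 0.68, 0.11 and 0.47 at 18 µg, 0.72, 0.96 and 1.14 at 54 µg, and 1.22, 1.58, 1.18 and 1.096 at 162 µg. Every mouse at 54 and 162 µg lay above every control and every 18 µg mouse, with repeat arrays averaged. The value of replicate 1 at 54 µg is a mean of 2 arrays that differed by 0.93 in Tm7sf2. The control mean was 0.54 ± 0.09 (SD, n = 4) and the 162 µg mean 1.27 ± 0.21 (SD, n = 4), a rise of 1.65-fold (95% interval 1.31 to 2.08; log2 change 0.72, SE 0.16, limma adjusted p = 0.0168). Against 18 µg it was 0.85 higher (adjusted p = 0.0083), and the trend was 0.27 per step (adjusted p = 0.00383). Within slide blocks the change from control was 0.44 to 1.00, and another probe gave 0.66 (SE 0.14). The call from control was lost without control replicate 1 (adjusted p = 0.0568), without replicate 2 at 162 µg (0.0903), when the fit held no other groups (0.0734) and with the mouse of conflicting labels placed at day 1 (change 0.56, 0.186). The call against 18 µg was lost without replicate 2 of that group (0.0955), and the trend in 1 of 27 alternatives, with that mouse at day 1 (0.0621).

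**Figure D2:**
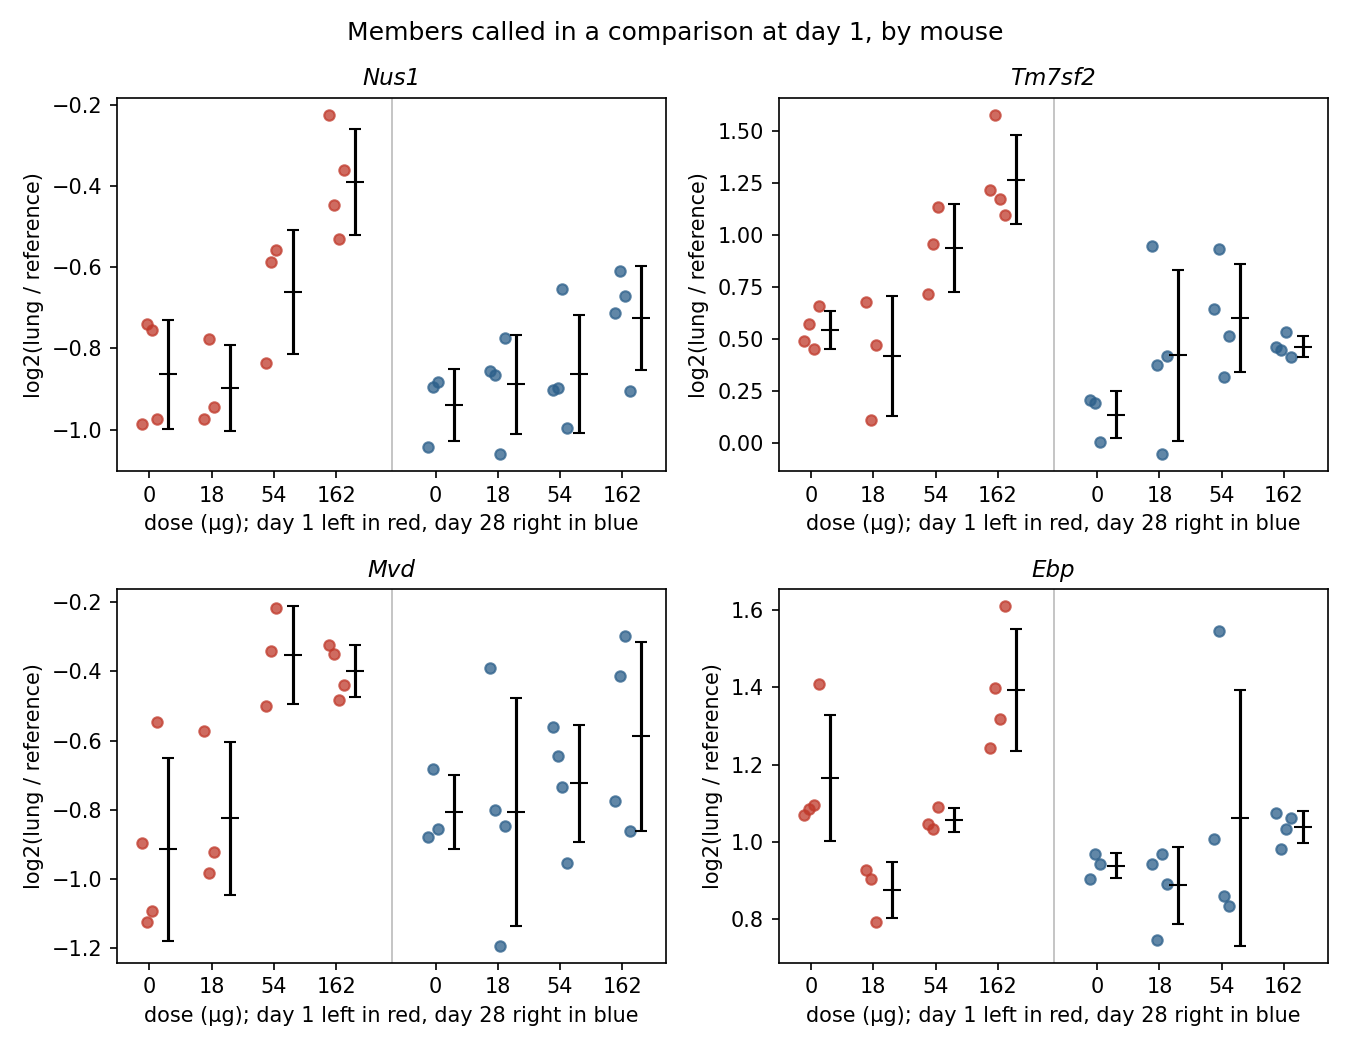
Log2(lung / reference) of Nus1, Tm7sf2, Mvd and Ebp in each mouse (points) by dose, at day 1 in red and day 28 in blue, with the mean and SD of each group in black. At day 1 Nus1 and Tm7sf2 were highest at 162 µg, Mvd was about as high at 54 as at 162 µg, and Ebp was lowest at 18 µg; the vertical axes do not start at 0.

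Among the mevalonate and isoprenoid steps (Acat2, Hmgcs1, Mvk, Pmvk, Mvd, Idi1, Fdps, Ggps1 and Nus1), 8 of 9 members were above 0 at 162 µg and day 1, with a median of 0.31, and Nus1 was the member called. Mvd, the decarboxylase that makes isopentenyl diphosphate, had log2 ratios of -0.90, -1.12, -1.09 and -0.55 in the controls, -0.57, -0.98 and -0.92 at 18 µg, -0.50, -0.34 and -0.22 at 54 µg, and -0.32, -0.35, -0.48 and -0.44 at 162 µg. All mice at 54 and 162 µg lay above all controls. Its trend was 0.20 per step (SE 0.05, limma adjusted p = 0.0246), while neither single dose was called: 0.56 (SE 0.17, adjusted p = 0.392) at 54 µg and 0.52 (SE 0.15, adjusted p = 0.0966) at 162 µg. The trend's adjusted p ran from 0.0522 to 0.0783 without control replicate 1, 2 or 3, or without replicate 1, 2 or 4 at 162 µg, in turn, and was 0.0777 with median centring, 0.0531 without the muscle arrays and 0.0633 with the mouse of conflicting labels at day 1. Hmgcs1, which makes HMG-CoA, was 0.36, 0.31, -0.08 and 0.87 in the controls and 0.74, 0.65, 0.44 and 0.76 at 162 µg; 1 control lay above all treated mice, and the change was 0.28 (SE 0.15, adjusted p = 0.438). Fdps, which makes farnesyl diphosphate, was -0.16, -0.61, -0.60 and 0.23 in the controls, -0.38, -0.73 and -0.70 at 18 µg and 0.23, 0.02, -0.05 and 0.04 at 162 µg. The 162 µg mice lay above the 18 µg mice but within the range of the controls (0.34, SE 0.19, adjusted p = 0.463). Of the other members at that dose, Mvk, the mevalonate kinase, differed from control by 0.31 (SE 0.15, limma adjusted p = 0.383), Idi1, the isopentenyl diphosphate isomerase, by 0.32, Ggps1, which makes geranylgeranyl diphosphate, by 0.19, Acat2, an acetyl-CoA acetyltransferase, by 0.11 and Pmvk, the phosphomevalonate kinase, by -0.018. None of these was called.

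The 3 enzymes from squalene synthesis to lanosterol were 0.28 to 0.34 above control at 162 µg and day 1, and none was called. Fdft1, which is squalene synthase, differed by 0.30 (SE 0.19, limma adjusted p = 0.533), Sqle, the squalene epoxidase, by 0.34 (SE 0.19, adjusted p = 0.463) and Lss, the lanosterol synthase, by 0.28 (SE 0.20, adjusted p = 0.6). Sqle ran from -1.71 to -0.68 in the controls and from -1.16 to -0.76 at 162 µg, so the groups overlapped.

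Of the 9 members from lanosterol to cholesterol (Cyp51, Tm7sf2, Lbr, Msmo1, Nsdhl, Hsd17b7, Ebp, Sc5d and Dhcr7), all 9 were above 0 at 162 µg and day 1, with a median of 0.23, and Tm7sf2 was called. Ebp, the sterol isomerase, had log2 ratios of 1.07, 1.09, 1.096 and 1.41 in the controls, 0.93, 0.90 and 0.79 at 18 µg, 1.05, 1.03 and 1.09 at 54 µg, and 1.24, 1.40, 1.32 and 1.61 at 162 µg. The 18 µg mice lay below all others of that day, and 162 µg overlapped the control range through control replicate 4. The difference of 162 µg from 18 µg was 1.43-fold (log2 difference 0.52, SE 0.12, limma adjusted p = 0.026), while from control it was 0.23 (SE 0.12, adjusted p = 0.41) and for 18 µg from control -0.29 (SE 0.12, adjusted p = 0.912). The call against 18 µg was lost without replicate 2 (adjusted p = 0.0568) or 4 (0.11) at 162 µg and without each 18 µg mouse in turn (0.0689, 0.0832 and 0.145). Set against the 1 control array without muscle signal, the difference at 18 µg was 0.04.

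Nsdhl, the sterol dehydrogenase of the demethylation steps, was -0.97, -0.88, -0.76 and -0.83 in the controls, -0.61, 0.15 and -0.44 at 54 µg, and -0.49, -0.46, -0.49 and -0.73 at 162 µg. Both treated groups lay wholly above the controls, but the change was 0.56 (SE 0.17, limma adjusted p = 0.447) at 54 µg and 0.32 (SE 0.16, adjusted p = 0.41) at 162 µg. At 54 µg, 5 members did not overlap the controls (Tmem97, Lbr, Mvd, Tm7sf2 and Nsdhl), against 5.34% of all genes. Dhcr7, a reductase at the end of the route, was -0.75, -0.15, -0.66 and -0.03 in the controls, -0.86, -0.67 and -0.63 at 18 µg, and -0.33, -0.55, -0.09 and -0.61 at 162 µg. The groups overlapped, with differences from control of -0.32 at 18 µg (SE 0.18, adjusted p = 0.912; 0.27 against the 1 control array without muscle signal) and 0.005 at 162 µg (SE 0.17, adjusted p = 0.995). The other 5 members of these steps differed from control by 0.19 (Lbr) to 0.26 (Sc5d, Msmo1) at 162 µg, with Hsd17b7 at 0.21 and Cyp51, the lanosterol demethylase, at 0.23, and none was called.

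Of the 4 genes of SREBP control, limma called 0 in any of the 14 comparisons, and at most 1 had an unadjusted p under 0.05 in any of them. At 162 µg and day 1, Srebf2 differed from control by 0.28 (SE 0.20, adjusted p = 0.606), Insig1, itself an SREBP target, by 0.05 (SE 0.21, adjusted p = 0.951), Insig2 by -0.09 (SE 0.10, adjusted p = 0.771) and Scap by -0.016 (SE 0.13, adjusted p = 0.978). Their median was 0.017, and 0 had an unadjusted p under 0.05. At 54 µg Srebf2 was -0.83, -0.28 and -0.48 against -0.76, -1.68, -0.98 and -0.95 in the controls, so 1 mouse overlapped (change 0.56, SE 0.21, adjusted p = 0.583). Insig1 varied widely within groups, from -0.18 to 0.56 in the controls and from -0.18 to 0.76 at 162 µg.

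Tmem97, a sterol-responsive membrane protein, was -0.98, -1.02, -1.15 and -1.07 in the controls, -0.66, -0.82 and -1.01 at 18 µg, -0.74, -0.92 and -0.25 at 54 µg, and -0.62, -0.60, -1.04 and -0.61 at 162 µg. The 54 µg mice lay above the controls and 1 mouse at 162 µg lay among them; the changes at 18, 54 and 162 µg were 0.22 (SE 0.14, limma adjusted p = 0.912), 0.42 (SE 0.14, adjusted p = 0.513) and 0.34 (SE 0.13, adjusted p = 0.247). Stard4, a sterol carrier, differed from control by 0.30 (SE 0.16, adjusted p = 0.448) at 162 µg.

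Acss2, the cytosolic acetyl-CoA synthetase, had the widest spread of all members, with a residual SD of 0.91 against a median of 0.24 over the members and 0.20 over all genes tested. It ran from 0.39 to 4.04 over the 29 mice, and at day 28 and 18 µg it was 2.10, 1.45, 1.02 and 4.04 against 0.82, 1.00 and 0.86 in the controls. The change from control was 1.26 (SE 0.66, limma adjusted p = 0.892). At 162 µg and day 1 Acss2 had the lowest change of the members, -0.76, which was not called, and another probe gave -0.57. Acss2 ran from 0.77 to 2.53 in that group and from 1.096 to 3.54 in the controls of that day, so the groups overlapped. Its highest values, 4.04, 3.54 and 3.06, were in a mouse at 18 µg and day 28, a control at day 1 and a mouse at 54 µg and day 28, and the same mice had the highest means over 8 adipocyte markers (5.41, 5.74 and 5.87). The part of fat tissue in the Acss2 values was not tested.

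**Figure D3:**
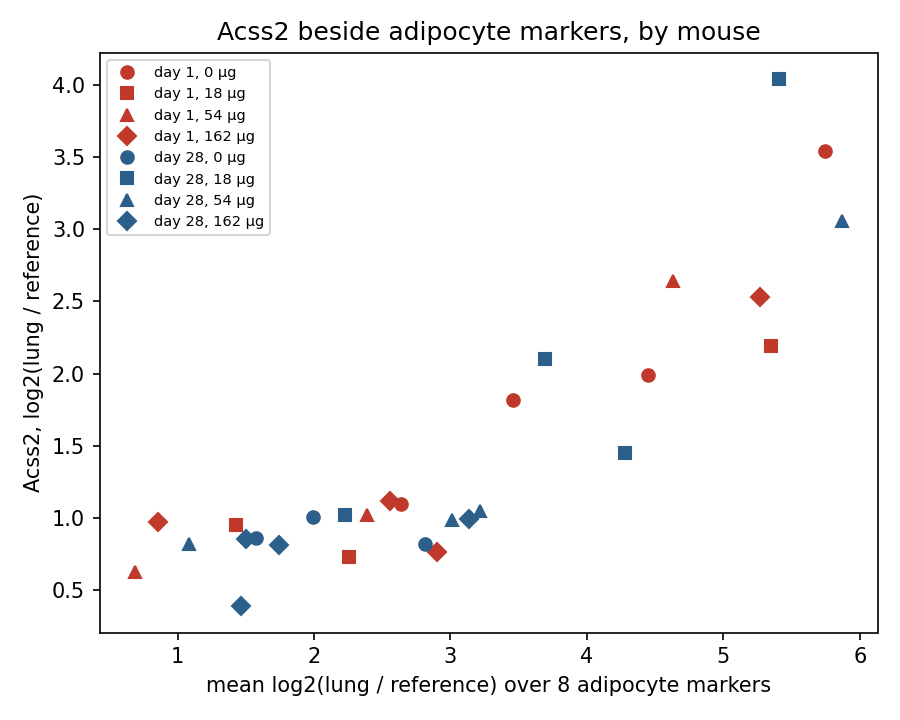
Acss2 log2(lung / reference) of each mouse against its mean log2 ratio over 8 adipocyte marker genes (Adipoq, Plin1, Cidec, Cidea, Cfd, Retn, Lep and Pck1), coloured by day and shaped by dose. The 3 mice highest on the vertical axis (4.04, 3.54 and 3.06) are also the highest on the horizontal axis.

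Per mouse, the median of the 28 differences from the control mean at day 1 was -0.20 to 0.20 in the controls, -0.12 to 0.015 at 18 µg, 0.15 to 0.32 at 54 µg and 0.23 to 0.31 at 162 µg. All 4 mice at 162 µg lay above all 4 controls in this median, and the 18 µg mice lay within the control range. Since each control enters its own reference mean, these values are a description. In the 7 mice on 2 arrays the members' median differed between the arrays by -0.09 to 0.46. The difference was 0.40 in control replicate 1 at day 1, where 1 of the arrays was a muscle array, 0.35 in replicate 1 at 54 µg and day 1, where neither was, and 0.46 in replicate 1 at 54 µg and day 28, where both were. Single members differed more between the arrays of a mouse. The largest absolute difference per mouse ran from 0.51 (Idi1, 18 µg and day 1) to 1.18 (Tm7sf2, 54 µg and day 28). In the mouse at 54 µg and day 1 it was 0.93, also in Tm7sf2. Against the 1 control array left at day 1 without the muscle arrays, Nus1 was 0.67 higher at 162 µg (limma adjusted p = 0.045) and Tm7sf2 0.99 higher (adjusted p = 0.0466); these p-values assume that the lone control varied like the mice of the other groups. With muscle and squamous scores as covariates, Nus1 changed by 0.49 (adjusted p = 0.0126) and Tm7sf2 by 0.84 (adjusted p = 0.00541).

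**Figure D4:**
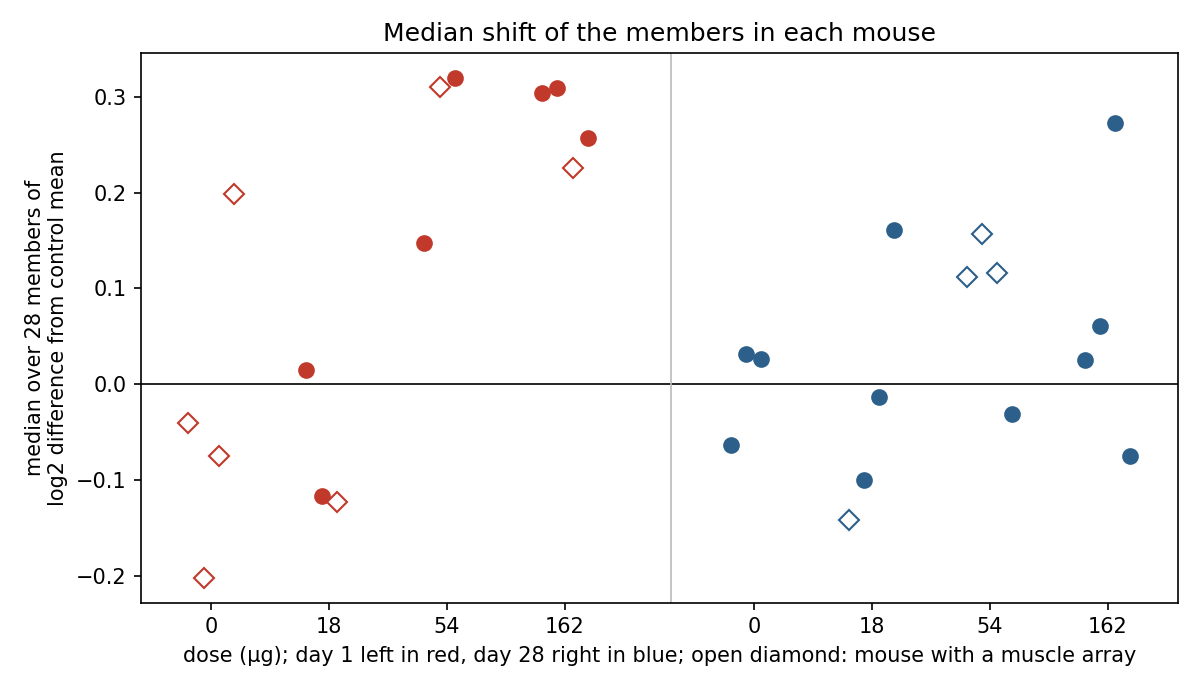
Median over the 28 members of the log2 difference from the mean of the controls of the same day, for each mouse by dose; open diamonds are mice with a muscle array. At day 1 the 162 µg mice lie between 0.23 and 0.31, above the controls, and at day 28 the groups overlap.

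Among markers of other cells, genes of 5 lists were called at the same dose and day. At 162 µg and day 1, limma called 9 of 15 tested cell cycle genes higher (16 listed), and the list's mean log2 ratio was -1.81 to -1.75 in the 4 mice against -2.66 to -2.47 in the controls. The neutrophil list was 2.32 to 2.91 against 1.94 to 2.51, with 1 of 6 tested genes called higher (Mmp8, a neutrophil collagenase, 1.02). The alveolar type II list was 4.61 to 5.47 against 4.90 to 5.19, with 0 of 9 called. The monocyte and recruited macrophage list was above 0 for 7 of 7 genes, with 0 called and a median of 0.56, and in the alveolar macrophage list Ear2 was called lower (-0.98). In the club and ciliated list Tppp3 was called lower (-0.44), 4 of 6 genes had an unadjusted p under 0.05 and the median was -0.48. In the alveolar type I list Pdpn was called higher (1.12), 1 of 5 genes, with a median of -0.10. The skeletal muscle list was below 0 for 13 of 13 tested genes, with a median of -2.79. Their part in the changes of Nus1 and Tm7sf2 was not tested.

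At day 28 the comparison asked whether the day 1 changes were still there. Limma called 0 members at 162, 54 or 18 µg, where 0.632%, 0% and 0% of all genes were called. Unadjusted p was under 0.05 for 0, 2 and 0 members and for 4.78%, 6.15% and 4.33% of all genes. The members' medians were 0.09, 0.11 and -0.015. Of the 28 members 20, 21 and 11 were above 0, against 50.2%, 45.5% and 44.2% of all genes. The 162 µg median was 0.017, with 16 of 28 above 0, without replicate 3 of that group, and 0.15 without replicate 4. The 54 µg median was 0.009 (14 of 28) with median centring, 0.06 without replicate 3, and -0.031 (13 of 28) without the muscle arrays, which left 1 mouse at 54 µg. The 18 µg median was 0.037 (18 of 28) without replicate 1 of that group. By role at 162 µg, 6 of 9 mevalonate and isoprenoid members were above 0 (median 0.07), 3 of 3 from squalene to lanosterol (0.16), 7 of 9 from lanosterol to cholesterol (0.10) and 4 of 4 of SREBP control (0.15). In the monocyte and recruited macrophage list limma called Gpnmb (1.89) and Trem2 (1.92) higher at that dose and day. Nus1 was -1.04, -0.90 and -0.88 in the controls and -0.71, -0.61, -0.67 and -0.91 at 162 µg (change 0.22, SE 0.11, adjusted p = 1). Tm7sf2 was 0.21, 0.20 and 0.0075 in the controls, 0.95, 0.38, -0.05 and 0.42 at 18 µg, 0.64, 0.93, 0.32 and 0.51 at 54 µg, and 0.46, 0.45, 0.53 and 0.41 at 162 µg. The 54 and 162 µg groups lay above the controls for Tm7sf2 and 1 mouse at 18 µg lay below them; the changes were 0.29 (SE 0.18, adjusted p = 0.892) at 18 µg, 0.47 (SE 0.18, adjusted p = 0.749) at 54 µg and 0.33 (SE 0.18, adjusted p = 1) at 162 µg. The Tm7sf2 value of replicate 1 at 54 µg is a mean of 2 arrays that differed by 1.18. The other probes gave smaller changes at 162 µg, 0.09 (SE 0.15) for Tm7sf2 and 0.02 (SE 0.12) for Nus1. At 162 µg 2 members did not overlap the controls (Ebp and Tm7sf2, against 5.92% of all genes). At 54 µg 3 did not (Sc5d, Tm7sf2 and Dhcr7, against 2.97% of all genes). Insig1 was -0.18, 0.14 and 0.08 in the controls, 0.60, 0.50, -0.08 and 0.58 at 18 µg and 0.12, 0.52, 0.68 and 0.23 at 162 µg, and neither change was called (0.39, SE 0.23, adjusted p = 0.892, and 0.37, SE 0.23, adjusted p = 1).

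Fdps at 54 µg and day 28 was 0.05, 0.39, -0.53 and -0.42 against -0.41, -0.56 and -0.73 in the controls (change 0.44, SE 0.21, limma adjusted p = 0.749), and Fdft1 was -0.16, 0.09, 0.11 and -0.59 against -0.58, -0.39 and -0.56 (change 0.37, SE 0.20, adjusted p = 0.749). In both genes at least 1 treated mouse lay within or below the control range. Of the 4 mice at 54 µg, 3 had muscle arrays, and the Fdft1 change was -0.079 without the muscle arrays, when 1 mouse at 54 µg remained, and -0.03 with the muscle and squamous scores as covariates. Against 18 µg, 162 µg at day 28 had 0 members called, with 2 at an unadjusted p under 0.05 and 1.03% of all genes called. Of all genes, 11.3% had an unadjusted p under 0.05 in that comparison and 4.8% in the dose trend at day 28. The dose trend at day 28 had 0 members called, 1 at an unadjusted p under 0.05 and 0.507% of all genes called, led by Tm7sf2 at 0.12 per step (SE 0.06, adjusted p = 1), Nus1 at 0.07 (SE 0.03, adjusted p = 1) and Hmgcs1 at 0.07 (SE 0.05, adjusted p = 1). Hmgcs1 was 0.32, 0.35 and 0.47 in the controls and 0.59, 0.52, 0.87 and 0.34 at 162 µg, where 1 mouse lay within the control range.

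The difference between the day 28 and the day 1 change was tested itself. Limma called 0 members at 162, 54 or 18 µg, and 0.0258%, 0% and 0% of all genes. Unadjusted p was under 0.05 for 0, 2 and 1 members and for 3.83%, 10.2% and 6.7% of all genes. For Nus1 at 162 µg the difference between the changes was -0.26 (95% interval -0.55 to 0.04) and for Tm7sf2 -0.40 (95% interval -0.89 to 0.10). A day 28 change equal to the day 1 change was thus within both intervals. The controls of day 28 against those of day 1 gave 0 members and 0% of all genes called. In that comparison 2 members and 4.98% of all genes had an unadjusted p under 0.05, and Tm7sf2 differed by -0.41 (SE 0.18, limma adjusted p = 0.777). The labels give the same age range for all mice, while collection day also separates mice of different age. Day and age cannot be told apart in these comparisons.

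Neighbouring pathways were read from 4 gene lists, and limma called 0 of their genes in any of the 14 comparisons; unadjusted p was under 0.05 for 0 to 4 genes of a list in each. At 162 µg and day 1 the median change was 0.08 over 14 tested genes of the dolichol, ubiquinone and prenylation branches, with 9 above 0. It was 0.15 over 12 genes of SREBP processing and enzyme degradation, with 8 above 0, and 0.04 over 13 genes of sterol trafficking and esterification, with 9 above 0. Fatty acid synthesis, a pathway led by the related factor SREBP-1, had a median of -0.48 over 14 genes with 2 above 0. Unadjusted p was under 0.05 in that comparison for 1, 1, 2 and 0 genes of these lists. The adipocyte list was below 0 for 7 of 7 tested genes in that comparison, with a median of -1.24, and its part in the fatty acid genes was not tested.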

How the data were processed

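Spot quantification was done with Agilent Feature Extraction 11.0.1.1, per the file headers. The scanner files as deposited hold median spot and background intensities for each dye, and a LogRatio column that is a log10 ratio. A separate deposited matrix holds log2 ratios, with its normalization not given in the sources used here; across probes it correlated with the computed ratios at r = 0.986 to 0.997 per array, and its column medians were -0.039 to -0.017.

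Ratios were computed with R 4.3.3, data.table (version 1.17.8) and limma 3.58.1 by normexp background correction (offset 50) and loess within each array, and spots of a probe were averaged. Names came from RefSeq accessions (GRCm38.p6; 28026 of 55681 probes, 21154 symbols). The 7 mice on 2 arrays each were averaged. Tested genes were well above background in the lung channel on all arrays of 3 or more mice in any group. Between 48.6% and 62.2% of probes were above background per array, and the number of mice limits the precision. A limma model with a mean per group gave 14 two-sided comparisons, each adjusted by Benjamini-Hochberg over all genes. The fit was tested on simulated data; the first tolerance set was missed at 1 effect size and was then replaced by a criterion scaled to the standard error.

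The members and lists were chosen with earlier results of these data known. Mouse values are given for members called in any comparison and for the 3 of smallest p in each dose comparison with control and each trend. Alternatives changed the background correction, the normalization, the source of values, the filter, the probe rule, the slide block, the mouse of conflicting labels, muscle arrays, covariates, array weights, repeat arrays, the groups in the fit and single mice.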

Additional observations from a re-analysis of the deposited data

Results flagged for a closer look

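Of 60 groups of 4 mice tested over 12 named members, 6 had a mouse far from the other 3 by Dixon's 95% criterion; chance alone gives about 1 in 20 such groups. Nsdhl was -0.73 in replicate 4 at 162 µg and day 1, with the nearest mouse at -0.49. Tmem97 was -1.04 in replicate 3 of the same group, a mouse with a muscle array, with the nearest mouse at -0.62. Ebp was 1.41 in control replicate 4 at day 1, with the nearest at 1.096. At day 28, Fdps was -0.30 in replicate 3 at 162 µg (nearest -0.59) and Insig1 was -0.076 in replicate 3 at 18 µg (nearest 0.50). Acss2 was 3.06 in replicate 3 at 54 µg and day 28 (nearest 1.05), the mouse with the highest adipocyte marker mean of all 29 mice.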

How the results depend on the processing

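Counts of called members moved most with array quality weights: 7 in place of 2 for 162 µg against control at day 1, 11 in place of 3 against 18 µg, 13 in place of 3 for the day 1 trend, 2 in place of 0 for 54 µg at day 28, and 1 in place of 0 for the change from day 1 to day 28 at 162 and at 54 µg. With these weights 20.3%, 11.5%, 19.7%, 12.9%, 3.51% and 16.2% of all genes were called in the same comparisons. With the mouse of conflicting labels at day 1 the counts of called members were 1, 0 and 1 for the first 3 comparisons. Of all genes, 1.01%, 0.881% and 1.57% were called then, against 1.7%, 2.04% and 2.58% as reported. Median centring gave 1 for 162 µg against control and 0 against 18 µg, with 0.727% and 0.486% of all genes called. Fitting only the groups compared gave 0 and 0, with 0.163% and 0.426% of all genes called. Leaving out each mouse in turn gave 1 to 3 against control (1 without control replicate 1 or replicate 1 or 2 at 162 µg), 1 to 3 against 18 µg (1 without any one 18 µg mouse) and 2 to 5 for the trend (5 without control replicate 4). Values of the other sign were those of Dhcr7 (0.27) and Ebp (0.04) at 18 µg and day 1 without the muscle arrays, which rest on 1 control array and give no direction, and of Fdft1 at 54 µg and day 28, which was -0.079 without these arrays (1 mouse at 54 µg) and -0.03 with the muscle and squamous scores as covariates. The cause was not tested. The muscle and squamous lists in these alternatives were chosen with earlier results of these data known. For replicate numbers, no paired analysis was possible because they were given in accession order. The slides do join mice of different groups, and with the slide as a block the counts of called members were the same in all 14 comparisons.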
